A study of Mus musculus with 16 samples.

Results

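Classical monocytes were followed in single-cell RNA data from the immune cells of subcutaneous B16 melanomas. They were chosen by raw counts of unique molecular identifiers (UMIs, 1 per captured transcript) in each cell barcode. A barcode with 200 genes or more and at most 10% mitochondrial UMIs was kept. It was gated as a classical monocyte with at least 1 UMI of Ly6c2, at least 2 of Chil3 and Vcan together, and at most 1 of Nos2. It also had at most 1 UMI of Ace and Treml4 together, at most 1 of Csf3r, Retnlg and Cxcr2 together, none of Flt3, Cd3d or Cd3e, and at most 5 of C1qa, C1qb and C1qc together. The gate held 2540 of 99357 barcodes that passed the filter, or 2.56%, and the whole series had 116552 barcodes. Of the gated barcodes, 1662 could be assigned to 1 of 16 mice by a hashtag antibody, and these carry the main comparisons below. Fits with the lane as the unit also took in gated barcodes with no assigned mouse. The levels of the gate genes chose the cells and are given as description only.

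C57BL/6J mice were implanted under the skin with 1000000 Bro4.1 B16 melanoma cells, either control cells or cells lacking B2m, the light chain of MHC class I. Treatment was 100 mcg of anti-CD40, or of its rat IgG2a isotype control, given intraperitoneally at 6, 9 and 12 days, and tumours were collected at day 14. CD45-positive cells were enriched on magnetic beads, and hashtagged mice of 1 group were pooled on 1 lane. Under isotype there were 5 mice bearing control tumours and 5 bearing B2m-null tumours; under CD40 there were 2 and 4 respectively. The hashtag labels name 3 antibodies in every pool, but 6 of the 8 matrices hold lines for 2, and mice were counted from the hashtags in each matrix. Both control CD40 mice came from 1 pool, run on 2 lanes that the labels call technical replicates, so that group and its pool cannot be told apart. The sample labels attach the B2m genotype to the mouse, whereas the design text puts it in the implanted cells, and the design text was followed. B2m itself was read at 2553, 2857, 3142, 3519.5 and 3697 CPM (UMIs per 1000000 UMIs of the same cells) in the gated cells of the 5 B2m-null isotype mice, so these host cells expressed it. Whether mice came from separate experiments is not given beyond the pools, so p-values measure the spread between these mice.

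Classical monocytes are the Ly6C-high monocytes of the mouse. They leave the bone marrow and enter inflamed tissue through the chemokine receptor Ccr2, and in tumours they go on to become macrophages or monocyte-derived dendritic cells. Chil3 encodes a chitinase-like secreted protein, Vcan the matrix proteoglycan versican, and Ly6c2 the surface antigen used to sort these cells. Interferon-gamma from T and NK cells acts on them through factors such as Irf1 to induce guanylate-binding proteins, the chemokines Cxcl9 and Cxcl10 and antigen presentation. Type I interferons act through Stat2 and Irf9 to induce genes such as Isg15 and the Ifit family. CD40 is a TNF receptor family member of antigen-presenting cells that normally meets its ligand on activated T cells.

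The 8 lanes gave from 48 to 673 gated barcodes, and the share of them that could be assigned to a mouse ran from 24.6% in B2m-null isotype replicate 1 to 92.6%. The 28 pairs of lanes shared 41 to 92 barcode sequences, of which 1 was gated in both lanes. Gated cells per mouse numbered 22 to 286, with a median of 1680 to 4666 UMIs per cell. In total 2219081 UMIs stood behind the control isotype group, 1957607 behind B2m-null isotype and 1751077 behind B2m-null CD40, but 229258 behind control CD40. Sums of so few cells limit the control CD40 values most. Because the gate counts raw UMIs, a deeper cell meets its minimum counts more easily and exceeds its maximum counts more easily.

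Levels of genes outside the gate matched the label of classical monocytes when set against 2 other gates of the same lanes, C1q-positive macrophages (21311 cells) and T cells (17677 cells). Ccr2, which the gate does not use, averaged 1132 ± 334 CPM (SD, n = 16 mice) in the gated monocytes, 144 ± 67.9 in the macrophage gate and 281 ± 91.9 in the T cell gate. Plac8 averaged 3768 ± 820.0 CPM against 287 ± 177 in macrophages, and the acute-phase gene Hp 206 ± 83.6 against 4.55 ± 3.77. Macrophage genes stood the other way: the lipid carrier gene Apoe averaged 988 ± 705 CPM against 3335 ± 1289, the mannose receptor Mrc1 302 ± 229 against 995 ± 536, Ms4a7 92.5 ± 59.4 against 709.8 ± 87.8 and Folr2 11.8 ± 11.6 against 213 ± 83.1. These gates were cut on the cells themselves, so the contrast is a description with no test. Cells that met the gate but held 2 or more Nos2 UMIs numbered 145 in all lanes, and a non-classical gate held 252, too few per mouse to compare.

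**Figure D1:**
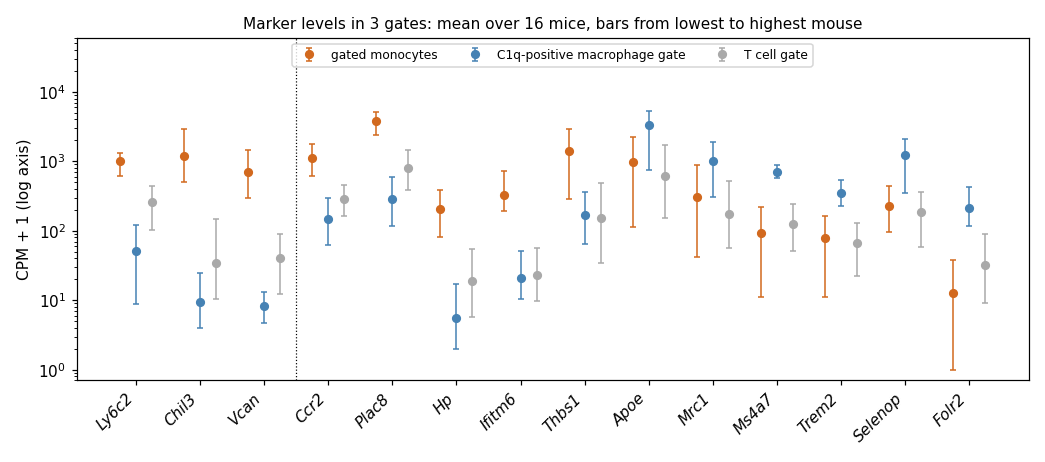
Marker levels in the gated monocytes, the C1q-positive macrophage gate and the T cell gate. Points are means over 16 mice of CPM plus 1 on a log axis, bars run from the lowest to the highest mouse, and the dotted line separates 3 gate genes from genes the gate did not use; Ccr2 averaged 1132 CPM in monocytes and 144 in macrophages.

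Within the gate, 823 of the 1662 assigned cells (49.5%) had UMIs of both Chil3 and Vcan, 466 (28.0%) had Chil3 only and 373 (22.4%) had Vcan only. The 390 cells just inside the threshold, with exactly 2 UMIs of Chil3 and Vcan together, had a median of 2665.5 UMIs and a mean of 2.95 Ly6c2 UMIs. The 564 cells just outside it, with 1 such UMI, had 2601.5 and 2.86, and the 1272 cells with 3 or more had 3285 and 3.69. In 13 mice with 10 or more cells of each kind, Fn1, which encodes fibronectin, was higher in Vcan-only than in Chil3-only cells in 11 mice (median 1224 against 399 CPM). Thbs1, thrombospondin 1, was higher in Vcan-only cells in 10 mice. The lysosomal proteases Ctsb and Ctsd were higher in Chil3-only cells in 13 of 13 mice, and Ccl5 in 11. Cells were split by the same transcripts that gated them, so these are descriptions with no test.

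Levels of the gate genes varied among groups in ways the gate allowed. Ly6c2 (ENSMUSG00000022584) was read at 793, 797, 928, 1128 and 1166 CPM in control isotype mice, listed here and below from lowest to highest. It stood at 1046 and 1308 in control CD40, 616, 826, 891, 1059.5 and 1131 in B2m-null isotype and 819, 1079.7, 1154 and 1249 in B2m-null CD40, with overlap among all groups. Chil3 (ENSMUSG00000040809) stood at 762, 997, 1047, 1264 and 1481, then 1086 and 2894, then 755, 969.8, 1023, 1276 and 1292, and then 506, 940.5, 1186 and 1289.8 CPM in the same order of groups. The single high value, 2894, was control CD40 mouse 1, which also held 4 of the 8 cells with neutrophil granule transcripts described below. Vcan (ENSMUSG00000021614) stood at 749.7, 838, 840.3, 1077 and 1434 CPM in B2m-null isotype and at 299, 407, 469.6 and 536 in B2m-null CD40, without overlap. In control tumours Vcan stood at 662, 705, 729, 766 and 855 CPM under isotype and 404 and 615 under CD40, again without overlap.

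Gated monocytes made up less of the tumour's immune cells under CD40 in control tumours, a difference that did not pass correction. Their share of a mouse's quality-passing cells was 2.34%, 2.48%, 3.91%, 4.11% and 5.81% in the control isotype mice and 0.282% and 0.584% in the control CD40 mice. The means were 3.73% ± 1.41 (SD, n = 5) and 0.433% (n = 2), an 8.61-fold lower share under CD40 without overlap. The two-sided exact permutation test over mice gave p = 0.0476, the smallest this design allows, and 0.133 after Benjamini-Hochberg adjustment over 4 comparisons. In B2m-null tumours the share was 1.56%, 1.92%, 2.34%, 3.92% and 5.42% under isotype (mean 3.03% ± 1.61, n = 5) and 1.60%, 2.25%, 2.29% and 2.99% under CD40 (mean 2.29% ± 0.568, n = 4). These groups overlapped, with an exact permutation p of 0.437 (adjusted 0.452). Between genotypes under isotype the difference, -0.696 percentage points, was within the spread of mice (exact permutation p = 0.452, adjusted 0.452), and without B2m-null isotype replicate 1 it was 0.153 points. Under CD40 the share was 5.28-fold higher in B2m-null than in control tumours, with an exact permutation p of 0.0667, the smallest possible with 4 against 2 mice, and 0.133 adjusted.

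The same order held when cells were counted among myeloid barcodes, those with 3 or more Lyz2 UMIs and no Cd3d or Cd3e. There the share averaged 6.90% ± 2.60 in control isotype, 1.30% in control CD40, 5.09% ± 3.24 in B2m-null isotype and 4.53% ± 1.04 in B2m-null CD40. With each cell thinned to 2000 UMIs, which left out 25559 shallower cells, the shares averaged 3.19%, 0.416%, 2.05% and 2.01%. The conditions of the gate removed different fractions of cells that had Ly6c2 and 2 or more UMIs of Chil3 and Vcan. Such cells were 6.91%, 1.01%, 6.62% and 5.79% of each group's pooled cells, again in that order. Of them, 4.11%, 12.1%, 2.32% and 23.4% were set aside for 2 or more UMIs of Nos2, the inducible nitric oxide synthase of activated monocytes. The Cd3 condition set aside 11.9%, 38.9%, 11.9% and 20.5%. Without the Nos2 condition the mean shares were 3.80%, 0.457%, 3.08% and 2.72%.

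**Figure D2:**
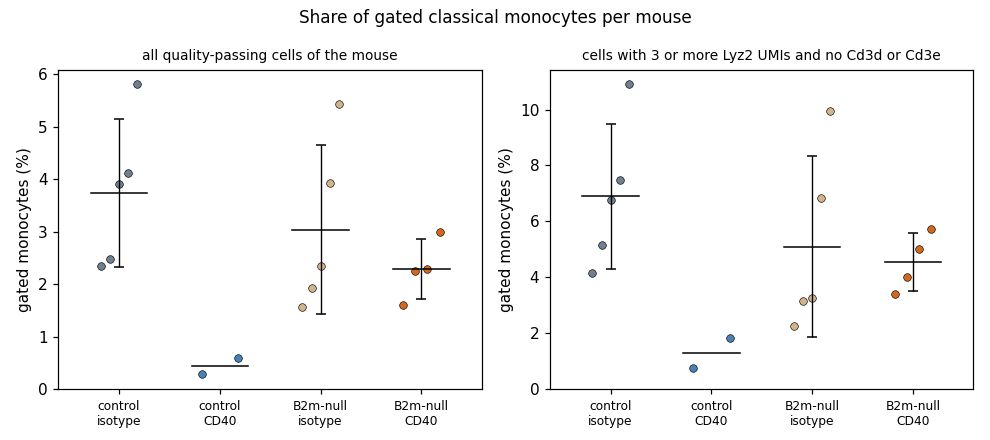
Share of gated monocytes per mouse, as a percentage of all quality-passing cells (left) and of Lyz2-positive cells without Cd3d or Cd3e (right). Points are mice, lines are means and bars are SDs where n exceeds 2; the 2 control CD40 mice, at 0.282% and 0.584% of all cells, lie below every other mouse in the left panel.

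Gene expression was compared on UMIs summed over the gated cells of each mouse, with edgeR's quasi-likelihood test across 6971 genes in all 16 mice at once. A gene was called at a Benjamini-Hochberg adjusted p under 0.05. Fold changes are on the log2 scale. For them the value after ± is a standard error worked out from the change and the test's F statistic. CPM are scaled to all UMIs of that mouse's gated cells. Comparisons that share a group share its mice: the B2m-null isotype mice are the reference of the CD40 effect in B2m-null tumours and also 1 arm of the genotype comparison under isotype.

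Under isotype, the question was how monocytes differ between tumours with and without B2m. The called interferon genes were all lower in monocytes of B2m-null tumours, and most members of their lists were not called. Of 6971 genes, 72 were called (1.03%), 13 higher (0.186%) and 59 lower (0.846%) in B2m-null tumours. That balance was not held by every alternative. Without B2m-null isotype replicate 1, 11 were higher and 9 lower. The split was 9 and 7 with cells thinned to 2000 UMIs and 11 and 7 in mice with 50 cells or more. With 4 or more UMIs of Chil3 and Vcan it was 2 and 2. The thinned and stricter-gate fits needed 20 gated cells in each mouse. In B2m-null isotype replicate 1 the mice had 7, 10 and 12 thinned cells, and 22, 37 and 39 unthinned. Neither the thinned nor the 50-cell fit therefore held that pool. With 4 or more UMIs of Chil3 and Vcan its mice had 13, 13 and 22 cells. The interferon-gamma response list had 11 of its 28 tested members lower and none higher, with a median log2 change of -0.91, against -0.01 over all genes. The type I interferon list had 12 of 33 lower and none higher (median -0.79). Of 20 genes of MHC class I presentation, 5 were lower (H2-D1, Psmb9, Psmb10, Psme2 and H2-Q7) and none higher (median -0.63). Of 10 class II genes 0 were called by edgeR, DESeq2 (8 with an adjusted p) or limma-voom. At an unadjusted edgeR p under 0.05 there was 1, against 675 of all genes.

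Gbp2 (ENSMUSG00000028270), an interferon-induced GTPase that attacks vacuoles of intracellular microbes, was read at 611, 641, 785, 859.6 and 1005 CPM in control isotype mice and 122, 182, 247, 405 and 511 in B2m-null isotype mice. The groups did not overlap (log2 change -1.34 ± 0.27, adjusted p = 0.014). Isg15 (ENSMUSG00000035692), a ubiquitin-like protein of the type I response, stood at 653, 654, 862, 928 and 951 CPM against 242, 355, 371, 378 and 389, also without overlap (-1.25 ± 0.17, adjusted p = 0.0012). Cxcl10, which draws T cells through Cxcr3, stood at 875, 1886, 1887, 2111 and 2906 against 444, 444, 752, 831 and 1120.4 CPM, where the lowest control mouse fell within the B2m-null range (-1.53 ± 0.28, adjusted p = 0.0060). H2-D1, a class I heavy chain, stood at 2162, 2263, 2265, 2270 and 2315 against 1401, 1449, 1514, 1568 and 1596 CPM, so that every B2m-null mouse lay below every control mouse (-0.68 ± 0.11, adjusted p = 0.0042). Irf1, a transcription factor of the interferon-gamma response, averaged 266 against 107 CPM (-1.20 ± 0.21, adjusted p = 0.0059). The RNA-binding Ifit2 averaged 284 against 111 (-1.41 ± 0.23, adjusted p = 0.0042), and Ifit3 134 against 53.4 (-1.36 ± 0.24, adjusted p = 0.0060).

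Of 11 arginine and itaconate genes 2 were called lower, Acod1 and Upp1, and limma-voom with the lane correlation called 1. Acod1, which makes the antimicrobial metabolite itaconate, stood at 96.5, 116, 142, 176 and 201 CPM in control and 20.2, 21.5, 36.5, 47.6 and 50.7 in B2m-null isotype mice (-1.94 ± 0.27, adjusted p = 0.0012). Upp1, uridine phosphorylase, stood at 55.3, 73.2, 73.8, 91.7 and 149.8 against 0, 0, 12.9, 20.3 and 42.8 CPM (-1.69 ± 0.39, adjusted p = 0.030), and complement factor B, Cfb, at 88.1, 129.8, 146, 166 and 208 against 12.9, 60.6, 60.8, 60.9 and 71.4 (-1.58 ± 0.33, adjusted p = 0.016). In these 3 genes no B2m-null mouse reached a control mouse. Calhm6 (-1.59), Batf2 (-1.41), Cdc42ep2 (-1.66), Zbp1 (-1.07) and the stem cell antigen Ly6a (-1.37) were also called lower. Plac8 was called lower too (-0.71 ± 0.12, adjusted p = 0.0042), as were the Fc receptors Fcgr1 (-0.78) and Fcgr4 (-1.18). Gzma, the granzyme of NK and T cells, averaged 127 CPM in control and 9.91 in B2m-null monocytes (-3.22 ± 0.66, adjusted p = 0.014), its UMIs lying in 20 and 7 cells. Gzma was the 1 called of 3 NK markers tested; limma-voom with the lane correlation did not call it, and DESeq2 gave it no adjusted p. The summed NK marker list ranged from 115 to 357 CPM in control isotype and from 0 to 91.2 in B2m-null isotype mice, and its part in the difference was not tested.

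Of the 72 genes called under isotype, 13 were higher in B2m-null tumours. Of 26 macrophage maturation genes 1 rose and none fell (median 0.05), and limma-voom with the lane correlation called 0. Among the largest increases were the chloride transporter Clcn5 (1.26), Romo1 (0.77) and the short ribosomal protein genes Rpl37a (0.69), Rps29 (0.62), Rpl38 (0.61) and Rps21 (0.54). The sum of 6 short ribosomal protein genes ran from 4809 to 5977 CPM in control isotype and from 7516 to 9645 in B2m-null isotype mice, and its part in the differences was not tested. Ccr2 (0.12 ± 0.13), H2-Ab1 (0.01 ± 0.18), Arg1 (0.06 ± 0.42), Il1b (-0.76 ± 0.27), Adgre1 (0.13 ± 0.18), Apoe (-0.21 ± 0.38), Cd40 (-0.78 ± 0.30), Cd274 (-0.61 ± 0.27), Ccl2 (-0.63 ± 0.21), Ccl5 (-1.24 ± 0.34) and Cxcl9 (-1.24 ± 0.47) did not pass. The calls leaned on single pools. Without B2m-null isotype replicate 1 there were 20, with 0 interferon-gamma, 3 type I and 1 class I gene lowered, and without control isotype replicate 1 there were 13, with 1, 4 and 1. Leaving out single mice left 31 calls (mouse 2 of B2m-null isotype replicate 2), 35 and 46 (mice 3 and 1 of control isotype replicate 1) and 42 (mouse 2 of control isotype replicate 2). Over 38 alternatives the interferon-gamma list had 0 to 18 members lowered and none raised, with medians from -1.38 to -0.51.

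Promoter sequences are shown for 5 interferon genes, as the windows that would carry the binding sites of interferon-activated factors. Irf1, Gbp2, Cxcl10 and Isg15 were called lower here, and Ifit1 was called lower under CD40 in control tumours, below. Each is the 250 bases before a RefSeq start on the gene's strand (GRCm38.p6), at chr11:53769764-53770013, strand + for Irf1; chr3:142620413-142620662, strand + for Gbp2; chr5:92348890-92349139, strand - for Cxcl10; chr4:156200819-156201068, strand - for Isg15; and chr19:34640639-34640888, strand + for Ifit1. Capitals mark matches, on either strand, to TTCNNNGAA, the letters of a gamma-activated site, which are their own reverse complement, or to 2 copies of GAAA set 2 bases apart, the letters of an interferon-stimulated response element.
Irf1: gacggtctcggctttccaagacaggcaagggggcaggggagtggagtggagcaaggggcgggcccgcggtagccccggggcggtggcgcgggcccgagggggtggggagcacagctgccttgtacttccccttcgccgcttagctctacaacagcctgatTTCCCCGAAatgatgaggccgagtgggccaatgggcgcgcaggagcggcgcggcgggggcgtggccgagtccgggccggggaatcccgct
Gbp2: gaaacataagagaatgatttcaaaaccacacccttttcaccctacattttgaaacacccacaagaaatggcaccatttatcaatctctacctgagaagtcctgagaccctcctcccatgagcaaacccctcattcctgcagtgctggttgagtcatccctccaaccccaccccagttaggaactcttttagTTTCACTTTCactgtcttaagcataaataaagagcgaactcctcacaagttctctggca
Cxcl10: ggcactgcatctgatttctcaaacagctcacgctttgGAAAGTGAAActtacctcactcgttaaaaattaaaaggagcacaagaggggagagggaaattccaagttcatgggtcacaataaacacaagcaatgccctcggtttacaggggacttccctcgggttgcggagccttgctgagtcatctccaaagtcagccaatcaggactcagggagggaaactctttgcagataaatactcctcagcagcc
Isg15: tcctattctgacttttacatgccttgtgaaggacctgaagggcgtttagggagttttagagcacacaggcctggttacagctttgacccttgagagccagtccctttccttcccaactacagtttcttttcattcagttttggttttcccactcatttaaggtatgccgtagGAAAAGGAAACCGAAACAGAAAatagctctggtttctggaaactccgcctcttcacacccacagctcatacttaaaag
Ifit1: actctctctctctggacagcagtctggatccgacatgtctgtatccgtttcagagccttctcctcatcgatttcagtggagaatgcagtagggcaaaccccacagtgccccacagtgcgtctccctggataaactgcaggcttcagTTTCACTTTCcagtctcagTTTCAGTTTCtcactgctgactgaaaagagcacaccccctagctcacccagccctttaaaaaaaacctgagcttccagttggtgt
The Irf1 window shown held a TTCNNNGAA match, while a second RefSeq window of Irf1, at chr11:53770223-53770472, held neither motif. The other 4 held the paired GAAA, which Isg15 carried as overlapping copies and Ifit1 at separate places. These windows are examples and do not stand for all called genes. Windows were looked up only for interferon-gamma list members raised by CD40 in B2m-null tumours and type I members lowered by it in control tumours. Others called lower under isotype, such as Gbp5 and Zbp1, were not looked up. Windows of Psmb10, Ifi47, Irf7 and Ms4a4c, also called lower under isotype, held neither motif. Those of Irgm1, Ifit3 and Slfn5, also lower, held the paired GAAA, and a window of Ifit2 held TTCNNNGAA. Of 32851 RefSeq windows of this length, 7.02% held TTCNNNGAA, 2.98% held the paired GAAA and 9.66% held either. A match is a description of the letters and not of a bound site.

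In B2m-null tumours, more genes were called between CD40 and isotype than in any other comparison. Such counts also depend on the mice and UMIs behind them, which were fewest in control CD40 (2 mice, 229258 UMIs). They do not rank the sizes of the effects. The called interferon-gamma, antigen-presentation and antimicrobial genes all rose, and the called macrophage maturation genes all fell. Of 6971 genes, 814 were called (11.7%), 501 higher (7.19%) and 313 lower (4.49%). The interferon-gamma list had 16 of 28 tested members higher and none lower, with a median log2 change of 0.98 against 0.01 over all genes. MHC class I presentation had 13 of 20 higher (median 0.73) and class II 5 of 10 (median 0.81), with none lower in either. The type I interferon list had 6 of 33 higher and 2 lower (median 0.08). Isg15, at 501, 506, 564 and 567 CPM under CD40, was above every isotype mouse (0.74 ± 0.18, adjusted p = 0.0087), and Ifi27l2a (0.65) and Ly6e (0.37) rose, while Slfn5 fell (-0.68).

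Among interferon-gamma genes, Gbp2 stood at 122, 182, 247, 405 and 511 CPM under isotype and 405, 448, 769 and 848 under CD40 (1.07 ± 0.29, adjusted p = 0.017), with 1 isotype mouse above 2 of the CD40 mice. Cxcl9, a Cxcr3 ligand that interferon-gamma induces, stood at 0, 60.6, 142, 393 and 577 CPM against 612, 709, 1131 and 1364, without overlap (2.02 ± 0.49, adjusted p = 0.0093). Cxcl10 stood at 884, 1527, 1726 and 1862 CPM under CD40 (1.27 ± 0.29, adjusted p = 0.0068), and its lowest CD40 mouse lay within the isotype range given above. Psmb10, a subunit of the immunoproteasome, stood at 170.5, 180.2, 203, 222 and 287 CPM against 437, 484, 511 and 583, well apart (1.35 ± 0.17, adjusted p = 3.0e-05). Gm4951, an interferon-inducible GTPase gene, averaged 1.11 CPM under isotype and 76 under CD40 (4.54 ± 0.45, adjusted p = 5.0e-06). Irf1 (0.94), Batf2 (1.95) and Calhm6 (1.79) were also called higher. RefSeq windows were found for 9 of the 16 raised list members; 3 of them held TTCNNNGAA (Igtp, Irf1 and Serpina3f), 4 held the paired GAAA (Cxcl10, Gbp2, Igtp and Irgm1), and 6 held either. Of 27025 genes with a RefSeq window, some with more than 1, 8.13% held TTCNNNGAA, 3.46% the paired GAAA and 11.1% either.

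**Figure D3:**
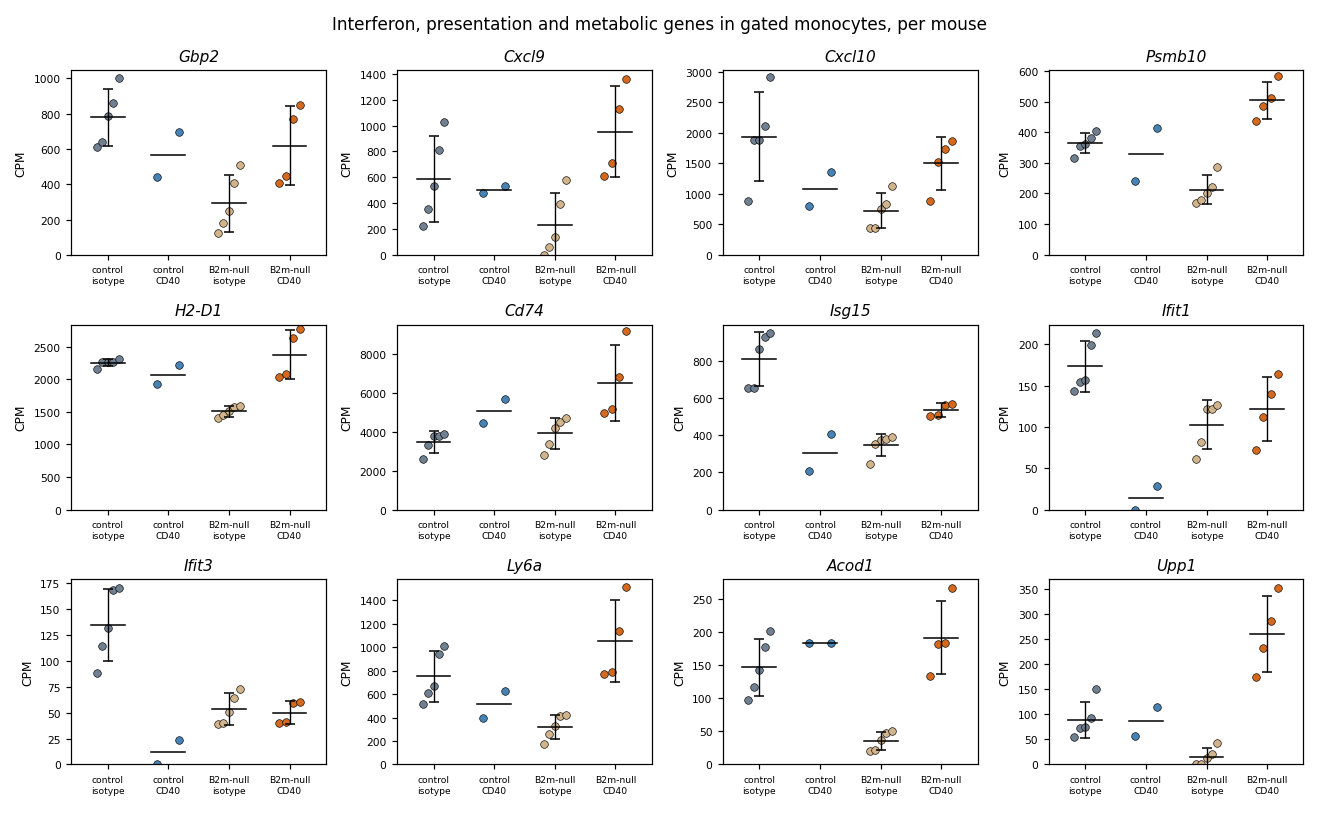
Levels in CPM of 12 interferon, presentation and metabolic genes in the gated monocytes of each mouse, by group. Points are mice, lines are means and bars are SDs where n exceeds 2; Psmb10 lies at 170.5 to 287 CPM in B2m-null isotype and at 437 to 583 in B2m-null CD40, and Ifit1 at 0 and 28.8 in the 2 control CD40 mice.

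Of the antigen presentation genes, 7 of 20 of class I and 5 of 10 of class II were not called. H2-K1, a class I heavy chain, stood at 1446, 1725, 2198, 2364 and 2448 CPM under isotype and 2763, 2934, 3045 and 3229 under CD40, without overlap (0.77 ± 0.12, adjusted p = 0.00024). H2-D1 stood at 2033, 2082, 2628 and 2769 CPM under CD40, above every isotype mouse (0.85 ± 0.12, adjusted p = 8.8e-05). B2m, the host's own light chain, rose by 0.57 ± 0.10 to 3564, 3878, 4357 and 4499 CPM. The immunoproteasome subunits Psmb8 (1.24) and Psmb9 (1.11), the proteasome activator genes Psme1 (0.66) and Psme2 (1.18) and the non-classical class I gene H2-Q7 (2.15) were called higher. Of class II genes, the invariant chain Cd74 stood at 2821, 3373, 4181, 4518 and 4707 CPM against 4986, 5168, 6802 and 9193 (0.95 ± 0.17, adjusted p = 0.0013), so that no isotype mouse reached a CD40 mouse. H2-Ab1 stood at 1254, 1324, 2135, 2364 and 2421 against 2324, 2435, 2815 and 3921 CPM with overlap (0.81 ± 0.19, adjusted p = 0.0080). H2-Aa (0.82), H2-Eb1 (1.00) and the lysosomal thiol reductase Ifi30 (1.09) rose as well.

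Of 26 macrophage maturation genes 6 fell, none rose and 20 were not called, with a list median of -0.16. Mrc1, the mannose receptor of tissue macrophages, stood at 365, 461, 499, 511 and 889 CPM against 40.9, 44.7, 64.2 and 107, more than the spread within either group (-2.79 ± 0.32, adjusted p = 7.0e-06). Apoe stood at 525, 1033, 1230, 1798 and 2222 against 112, 189, 239.6 and 698 CPM, with the highest CD40 mouse inside the isotype range (-1.85 ± 0.43, adjusted p = 0.0077). Maf (-1.09), Selenop (-1.07) and Pf4 (-2.50), a chemokine shared with platelets, fell as well. Mgl2, a lectin of macrophages and dendritic cells (-3.83), Ms4a4a (-2.95), Bcl11a (-3.10), Kmo (-2.48) and P2ry10 (-2.56) were also among the largest decreases. Ednrb, the endothelin B receptor, gave 55 UMIs under isotype and 1 under CD40, a ratio of 49.2 (95% counting interval 8.47 to 1978). Its fitted change, like those of all genes near 0, depends on edgeR's prior count.

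Migration genes were split. Ccr2 stood at 1188, 1348, 1378, 1571 and 1758 CPM under isotype and 617, 669, 782 and 829.5 under CD40, without overlap (-0.78 ± 0.14, adjusted p = 0.0013). The inflammatory receptor Ccr1 (-0.70) fell with it, while the integrin chain Itgb2 rose (0.47), and of 27 receptor and adhesion genes 5 rose, 3 fell and 19 were not called. Of 20 chemokines 3 rose, Cxcl9, Cxcl10 and Cxcl16 (1.37), and 4 fell, among them Ccl9 (-0.89). Ccl2, the Ccr2 ligand, did not pass (0.10 ± 0.22), nor did Ccl5 (0.37 ± 0.36). Of 22 classical monocyte genes outside the gate, Ccr2 and Ccl9 among them, 4 rose and 5 fell. Lyz2, lysozyme, stood at 5760.4, 6189.8, 7192, 7212 and 8469 CPM against 8224, 12273, 13069 and 13236 (0.94 ± 0.14, adjusted p = 0.00026), where 1 CD40 mouse fell in the isotype range. Plac8 rose by 0.69 ± 0.12, and the Ly6 family gene Ly6i stood at 0, 20.2, 24.4, 25.7 and 74.5 CPM against 244, 303, 506 and 894 (3.53 ± 0.40, adjusted p = 8.0e-06). Thbs1 stood at 1273, 1888, 2095, 2837 and 2879 against 285, 398, 801 and 1094 CPM, again without overlap (-1.58 ± 0.30, adjusted p = 0.0020). Vcan-only cells, in which Thbs1 was mostly higher, were 19.9% to 36.4% of a mouse's gated cells under isotype. Under CD40 they were 13.4% to 30.0%, and the part of this mix in the change was not tested.

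**Figure D4:**
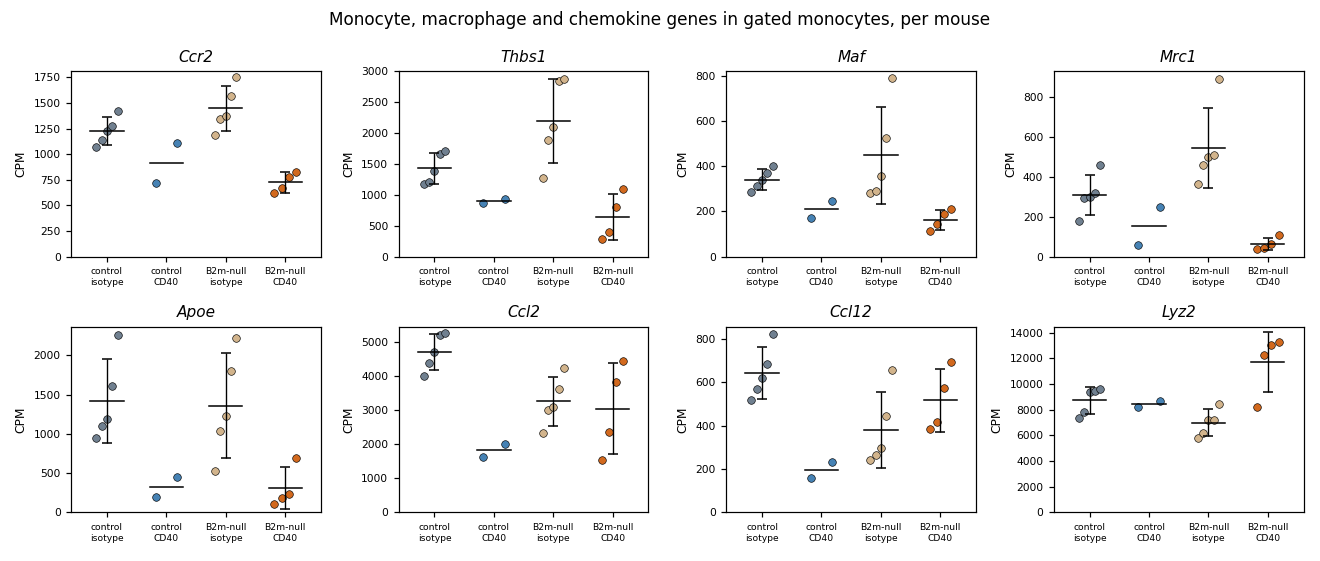
Levels in CPM of 8 monocyte, macrophage and chemokine genes in the gated monocytes of each mouse, by group. Points are mice, lines are means and bars are SDs where n exceeds 2; Mrc1 lies at 365 to 889 CPM in B2m-null isotype and 40.9 to 107 in B2m-null CD40, and Ccl2 at 1644 and 2012 in the 2 control CD40 mice.

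Of 11 arginine and itaconate metabolism genes 4 rose and none fell. Upp1 stood at 174, 232, 285 and 351 CPM under CD40, against at most 42.8 under isotype (3.37 ± 0.37, adjusted p = 5.0e-06). Acod1 stood at 133, 182, 184 and 266 CPM (2.50 ± 0.27, adjusted p = 5.0e-06) and Cfb at 294, 315, 424 and 566 (3.10 ± 0.32, adjusted p = 5.0e-06), both above every isotype mouse. Ass1, which feeds citrulline back into arginine (1.94), and the mitochondrial superoxide dismutase Sod2 (1.51) were called with Upp1 and Acod1. Of 24 antimicrobial genes 11 rose, including Lyz2, Lyz1 (1.85), the oxidase subunit Cyba (0.87) and the acute-phase gene Saa3 (4.99). With limma-voom and an estimated lane correlation 7 of the 24 were called. The 11 include the myeloid precursor genes Prtn3 and Ms4a3. Together with Mpo, Elane and Ctsg, these had 65.5% of their CD40 UMIs in 1 cell. The summed neutrophil marker list ran from 134 to 1694 CPM under isotype and from 667 to 4604 under CD40, and its part was not tested. Of 30 CD40 and NF-kB genes 6 rose, among them Bcl2a1b (1.08) and Tnfaip2 (0.99), and Rel fell (-1.05). Ly6a stood at 178, 263, 329, 414 and 425 CPM against 769.8, 792, 1139.9 and 1512 (1.92 ± 0.25, adjusted p = 4.2e-05). Of 25 glycolysis and hypoxia genes 6 rose, among them Gapdh (0.86), Pkm (0.66), Ldha (0.70) and Mif (0.78), and Ero1l fell (-0.76). The immediate early genes Fos (-0.43) and Dusp1 (-0.35), which tissue dissociation can also induce, were the 2 called of 15 stress genes, both lower; limma-voom with the lane correlation called 0 of the 15. The stress list summed to 12835 to 15115 CPM under isotype and 10037 to 11378 under CD40, without overlap. Pilra rose by 0.95 and Fcer1g by 0.41, and Bach1, a repressor of haem-responsive genes, fell by 1.38 on the log2 scale.

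Several of the largest increases rested on few cells. Gpr84, a receptor for medium-chain fatty acids, gave 38 UMIs under CD40 and 1 under isotype, a ratio of 42.5 (95% counting interval 7.18 to 1722). F830016B08Rik gave 49 and 1, a ratio of 54.8 (9.38 to 2207). S100a16 was at least 25.0-fold higher against a floor of 3 UMIs over the isotype group, with its UMIs in 9 cells. Of 20 cell cycle genes 6 rose, including Stmn1 (2.09), Ube2c (2.56) and Hmgb2 (0.82). UMIs of Mki67, Top2a, Birc5, Ube2c and Stmn1 were also summed in each cell. Cells with 5 or more of these UMIs were 17 of 372 (4.57%) under CD40 and 5 of 480 (1.04%) under isotype. Arg1 (-0.85 ± 0.46), Il1b (0.26 ± 0.28), Cd40 (0.91 ± 0.31), Cd274 (0.68 ± 0.29) and Adgre1 (-0.44 ± 0.19) did not pass.

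Of the marker lists of other cells, the erythroid and platelet list separated the groups in sum, and the sums of the others overlapped. Igkc, an immunoglobulin light chain, averaged 24.1 CPM under isotype and 498 under CD40 (4.49 ± 1.14, adjusted p = 0.013), with 94.9% of its CD40 UMIs in 1 cell and a value of -2.70, not called, without B2m-null CD40 replicate 1. Of 6 B cell genes 2 were called by edgeR and neither of these by DESeq2 or limma-voom, and the list summed to 70.9 to 353 and 46.0 to 3559 CPM. Siglech of plasmacytoid dendritic cells and Ppbp of platelets, with 115 and 158 UMIs under isotype and none under CD40, were at least 34.3-fold and at least 47.1-fold lower against the floor of 3 UMIs. The erythroid and platelet list summed to 343 to 1081 CPM under isotype and 48.4 to 255 under CD40, without overlap. The melanoma gene Mlana was called higher (4.12 ± 1.31, adjusted p = 0.045), with 95.9% of its CD40 UMIs in 1 cell, and limma-voom called 0 of 6 melanoma genes; that list summed to 50.7 to 232 and 51.1 to 648 CPM. Of 8 dendritic genes tested 4 were called lower, Cd209a, Clec10a, Siglech and Ccr9, and none higher (median log2 change -0.99). Limma-voom called 3 of the 8, and DESeq2 called 0 of the 4 to which it gave an adjusted p. The dendritic list summed to 648 to 1157 CPM under isotype and 469 to 720.3 under CD40, with 3 of its 12 genes at 0 under CD40. Cd209a, with 74 UMIs against none, was at least 22.1-fold lower. The T cell list summed to 0 to 207 and 46.4 to 66.4 CPM. The 6 short ribosomal protein genes summed to 7516 to 9645 CPM under isotype and 6499 to 7417 under CD40, without overlap. The part of these cells and genes in the result was not tested. Gated cells were also deeper under CD40, with mouse medians of 2988.5 to 4666 UMIs against 1680 to 3969. With cells thinned to 2000 UMIs the calls were 118, with 5 interferon-gamma genes raised. Mice with fewer than 20 thinned gated cells left that fit. All of B2m-null isotype replicate 1 went, with 7, 10 and 12 cells, so isotype was replicate 2 alone. Unthinned and without B2m-null isotype replicate 1 the calls were 344, with 10 interferon-gamma genes raised. Without B2m-null CD40 replicate 1 they were 540, with 9. They were 499 without B2m-null CD40 replicate 2 and 524 without mouse 2 of B2m-null CD40 replicate 1. Over 38 alternatives the interferon-gamma list had 5 to 18 members raised and none lowered, and the macrophage list had 4 to 8 lowered and 0 to 3 raised, with medians from -0.40 to 0.01.

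In control tumours under CD40 the called type I interferon, chemokine and Fc receptor genes were all lower, 10 of 33, 2 of 20 and 2 of 5 tested. Of 6971 genes 122 were called (1.75%), 74 higher (1.06%) and 48 lower (0.689%). The split was 76 and 84 without a filter on low counts and 34 and 37 without control CD40 replicate 1. It was 78 and 32 with no C1q UMI and 75 and 18 by limma-voom with the lane correlation. It was 16 and 3 without control CD40 mouse 1 and 22 and 3 without mouse 2. The type I interferon list had 10 of 33 members lower and none higher, with a median of -1.16 against -0.06 over all genes (-0.04 with the 151 genes that had no UMI in 1 group set to the bound a floor of 3 UMIs gives). With limma-voom and the lane correlation estimated, 4 of the 33 type I genes, 1 chemokine and 1 Fc receptor were called. The NK list summed to 115 to 357 CPM under isotype and 39.9 to 57.7 under CD40, and the dendritic list to 527 to 975 and 385 to 455, with 5 of 8 and 10 of 12 genes at 0 under CD40. Neither list's groups overlapped, and their part was not tested. Sums of several other lists did not overlap either, among them glycolysis, T cell suppression, cytokine and cell cycle genes. Those of the T cell, B cell, melanoma and erythroid lists overlapped. Of 28 interferon-gamma genes 1 was lower, Fcgr1 (median -0.13), and of 20 class I and 10 class II genes none was called by edgeR, DESeq2 or limma-voom (medians -0.13 and 0.26). DESeq2 gave an adjusted p to 16 and 9 of them. At an unadjusted p under 0.05 there were 4 and 2, and 897 of all genes.

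Isg15 stood at 653, 654, 862, 928 and 951 CPM under isotype and 208 and 404 under CD40, without overlap (-1.41 ± 0.25, adjusted p = 0.0030). Ifit1, an RNA-binding effector, stood at 143, 154, 157, 199 and 213 CPM against 0 and 28.8, or 401 UMIs against 3, a ratio of 13.8 (95% counting interval 4.69 to 67.2). Ifit3 stood at 88.1, 114, 132, 168 and 169.7 CPM against 0 and 23.9, a ratio of 10.6 (3.58 to 51.5). Slfn5, a Schlafen family gene, averaged 713 against 221 CPM (-1.69 ± 0.21, adjusted p = 5.3e-05), and Ifi204, a cytosolic DNA sensor, 915 against 437 (-1.06 ± 0.25, adjusted p = 0.022). Ifit2 (-1.65), Herc6 (-2.69) and Ms4a4c (-0.99) were called lower as well. RefSeq windows were found for 9 of the 10; the paired GAAA was in 4 (Ifit1, Ifit3, Isg15 and Slfn5) and TTCNNNGAA in 1 (Ifit2).

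Ccl2 and Ccl12 were the called chemokines. Ccl2 stood at 4017, 4399, 4713, 5210.4 and 5279 CPM under isotype and 1644 and 2012 under CD40 (-1.36 ± 0.30, adjusted p = 0.015), and Ccl12, a related Ccr2 ligand of the mouse, at 517, 571, 619, 682 and 824 against 159.7 and 231 (-1.72 ± 0.36, adjusted p = 0.0097). Neither gene's groups overlapped, and the other 18 of 20 chemokines were not called. Fcgr1, the high-affinity IgG receptor, stood at 498, 571, 602, 676 and 825 CPM against 259.6 and 303 (-1.16 ± 0.23, adjusted p = 0.0055). The inhibitory Fcgr2b (-1.15) and the receptor Ccr1 (-1.22) also fell. C1qbp gave 170 UMIs against 1, a ratio of 17.6 (95% counting interval 3.11 to 698), Mob1b 134 against 2 (6.92; 1.88 to 57.7) and Pgap2 185 against 3 (6.37; 2.15 to 31.2). Slc50a1 and Treml2 had no UMI under CD40 and were at least 2.65-fold and at least 2.27-fold lower against a floor of 3 UMIs over the group. Psmb2, a constitutive proteasome subunit, fell by 1.41 on the log2 scale. Of 25 glycolysis and hypoxia genes 2 fell, Bnip3 (-1.24) and Ero1l (-1.47), and limma-voom with the lane correlation called 0. Without control CD40 replicate 1, 1 of the 2 lanes, the Bnip3 change was -0.37 and not called.

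Of the genes that rose under CD40 in control tumours, some rested on few cells. Hmgb2 averaged 327 CPM under isotype and 1248 under CD40 (1.96 ± 0.29, adjusted p = 0.00048). Stmn1 (2.55) and the replication gene Pclaf (2.91) rose with it, while 18 of 20 cell cycle genes were not called and limma-voom with the lane correlation called 1. Of control CD40 cells, 6 of 86 (6.98%) had 5 or more UMIs of Mki67, Top2a, Birc5, Ube2c and Stmn1 together. Under isotype 7 of 724 (0.967%) did. Tnip1 (1.93) and Tnfaip2 (1.29) rose, as did Adgre4 (1.98), Cybc1 (1.48) and Ppp6r3 (1.11). Tnfaip2 was the 1 called of 30 CD40 and NF-kB genes (median -0.15). Adgre4 was 1 of 2 called of 13 non-classical monocyte genes, of which limma-voom called 0 and DESeq2 gave an adjusted p to 7, with 0 called. Neutrophil granule genes had the largest increases: Lcn2 averaged 8.16 against 1502 CPM (7.49 ± 1.09, adjusted p = 0.00035), S100a8 63.8 against 12722 (7.49), Camp 29.3 against 5438 (7.26) and Lyz1 6.36 against 125 (4.19). Without control CD40 mouse 1 the log2 changes of Lcn2, S100a8 and Camp were 1.89, -0.903 and -6.87, none of them called by edgeR. Of 24 antimicrobial and granule genes 8 rose and none fell, and of 7 neutrophil markers 2 rose; limma-voom with the lane correlation called 1 and 0. The neutrophil list summed to 271 and 47242 CPM in the 2 control CD40 mice and to 234 to 684 under isotype, and its part was not tested. Wfdc21 gave 105 UMIs against 2, a ratio of 508 (137 to 4251). Of 1662 gated cells 8 held 145 to 950 UMIs of Camp, Ngp and Ltf, 4 of them in control CD40 mouse 1, and these 4 held 99.7% of the group's S100a8 and S100a9 UMIs. Without such cells, an alternative chosen after the data were seen, 102 genes were called, 61 higher and 41 lower, 92 of them shared.

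The short ribosomal protein genes stood apart in control CD40. Rps29 was read at 707, 762, 768, 816 and 873 CPM under isotype and 1933 and 2323 under CD40 (1.44 ± 0.15, adjusted p = 8.0e-06), and Rpl37a (1.31), Rpl38 (1.34) and Rps21 (1.24) rose similarly. The sum of 6 such genes was 12366 and 15072 CPM in the 2 control CD40 mice, 4809 to 5977 in control isotype and 6499 to 7417 in B2m-null CD40, and its part in the other differences was not tested. Macrophage maturation genes had a median of -0.69 with none of 26 called by edgeR or limma-voom, 1 by DESeq2 (of 22 to which it gave an adjusted p) and 12 at an unadjusted p under 0.05. Apoe stood at 943, 1095, 1195, 1613 and 2257 CPM against 202 and 455 (-2.10 ± 0.61, adjusted p = 0.088). H2-Ab1 (0.66 ± 0.23), Ccr2 (-0.42 ± 0.18), Cd40 (0.24 ± 0.45), Arg1 (-1.18 ± 0.69), Il1b (-0.81 ± 0.37), Cxcl9 (-0.20 ± 0.62), Cxcl10 (-0.83 ± 0.37), Ccl5 (0.13 ± 0.43), Adgre1 (-0.09 ± 0.27), Ly6a (-0.55 ± 0.32) and Cd274 (0.09 ± 0.39) did not pass. Leaving out control CD40 mouse 1 or mouse 2 left 19 and 25 calls, with 3 and 2 type I interferon genes lowered and the lone mouse assumed to vary like the other groups. With 1 of the 2 control CD40 lanes left out there were 71 and 55 calls, and without control isotype replicate 1 there were 46. Over 36 alternatives 1 to 16 type I interferon genes were lowered and none raised, with medians from -1.68 to -1.05.

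**Figure D5:**
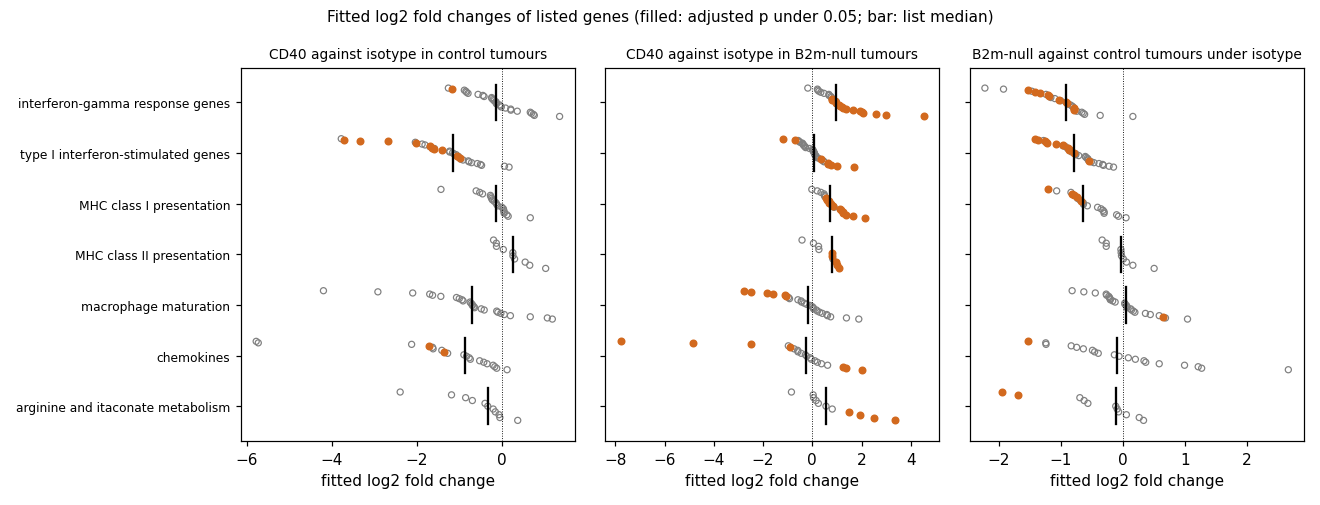
Fitted log2 fold changes of the tested members of 7 gene lists in 3 comparisons, with filled points for adjusted p under 0.05 and a bar at each list's median. In B2m-null tumours under CD40, 16 of 28 interferon-gamma genes are filled to the right of 0; in control tumours under CD40, 10 of 33 type I interferon genes are filled to the left.

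Under CD40, 46 genes were called between monocytes of the 2 tumour genotypes (0.66%), 27 higher (0.387%) and 19 lower (0.273%) in B2m-null tumours. DESeq2 called 137, and the split was 94 and 32 without a filter on low counts. It was 8 and 17 by limma-voom with the lane correlation and 11 and 21 with no C1q UMI. Without the Nos2 condition it was 16 and 18. Without control CD40 mouse 1 it was 3 and 3, and without mouse 2 it was 0 and 8. Of 28 interferon-gamma genes none was called by edgeR or limma-voom and 1 by DESeq2, of 19 to which it gave an adjusted p (median 0.41, against 0.04 over all genes); 4 had an unadjusted p under 0.05, as did 952 of all genes. Of 33 type I genes 1 was higher, Ifit1, with 225 UMIs against 3, a ratio of 9.82 (95% counting interval 3.32 to 48.0). Limma-voom with the lane correlation called 0 of these 33 and 0 of 20 class I genes. By edgeR, 2 of the 20 class I presentation genes were higher, Psme1 (0.88 ± 0.20, adjusted p = 0.046) and the chaperone Calr (0.99 ± 0.23, adjusted p = 0.049). Psmb2 averaged 343 against 91.2 CPM (2.01 ± 0.29, adjusted p = 0.0013), and AA467197 443 against 61.6 (2.96 ± 0.63, adjusted p = 0.028). C1qbp gave 176 UMIs against 1, a ratio of 23.04 (4.08 to 915), Pgap2 116 against 3 (5.06; 1.69 to 24.9), and Slc50a1, with no UMI in control CD40, was at least 2.88-fold higher.

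Lower in B2m-null tumours under CD40 were the transcription factors Bach1 (-1.50 ± 0.25, adjusted p = 0.0051), Ikzf1 (-1.53) and Pou2f2 (-1.93), the prostaglandin receptor Ptger4 (-1.66), Gpr132 (-1.09), Cybc1 (-1.64) and Ppp6r3 (-1.46). The ribosomal gene Rps29 was lower too (-1.08 ± 0.15, adjusted p = 0.0013), as was Wfdc21 (-3.20), whose UMIs lay in 7 cells of control CD40. Isg15 (0.90 ± 0.25), Ly6a (1.10 ± 0.33) and Cxcl9 (0.98 ± 0.65) did not pass. Ccl2 (0.83 ± 0.30), Cxcl10 (0.57 ± 0.38), Il1b (0.31 ± 0.37), Arg1 (0.39 ± 0.71), H2-Ab1 (0.16 ± 0.25), Apoe (0.03 ± 0.60), Ccr2 (-0.25 ± 0.19), Cd40 (-0.11 ± 0.45), Cd274 (-0.03 ± 0.39), Adgre1 (-0.22 ± 0.28) and Ccl5 (-0.995 ± 0.45) did not pass either. Without control CD40 mouse 1 there were 6 calls and without mouse 2 there were 8. Over all pools and mice left out in turn the calls ran from 6 to 112, the highest without B2m-null isotype replicate 1.

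Whether CD40 acted differently in the 2 kinds of tumour was tested as the difference of its effects, B2m-null minus control, on the log2 scale. It was called for 155 genes (2.22%), 114 more positive in B2m-null tumours (1.64%) and 41 more negative (0.588%). The split was 37 and 27 by limma-voom with the lane correlation. Without control CD40 mouse 1 or mouse 2, the control CD40 group was a single mouse. So it was with thinned cells and with 4 or more UMIs of Chil3 and Vcan, and with the lane as the unit it was a single pool. The lean towards positive differences was smaller or absent in those fits. The type I interferon list had 9 of 33 members called, all more positive (median 1.24, against 0.07 over all genes), led by Ifit1 (4.18 ± 0.69, adjusted p = 0.0019), Ifit3 (3.38 ± 0.71, adjusted p = 0.013) and Isg15 (2.15 ± 0.31, adjusted p = 0.00044). Class I presentation had 7 of 20, among them H2-D1 (0.97), Psmb8 (1.49) and Psmb10 (1.48). The interferon-gamma list had 4 of 28: Cxcl10 (2.09), Fcgr1 (1.39), Psmb10 and Gm4951 (3.17). Chemokines had 4 of 20, with Ccl2 (1.47), Ccl12 (2.34) and Cxcl16 (1.79) beside Cxcl10. Arginine and itaconate metabolism had 4 of 11, Upp1 (3.44), Ass1 (2.27), Acod1 (2.12) and Sod2 (1.66). All these lists had none more negative. Limma-voom with the lane correlation estimated called 3 of 33 type I, 5 of 20 class I, 2 of 28 interferon-gamma, 1 of 20 chemokine and 3 of 11 metabolism genes. Of 26 macrophage maturation genes none was called by edgeR or limma-voom, 2 were by DESeq2 (of 22 with an adjusted p) and 6 had an unadjusted p under 0.05, against 1122 of all genes. Mrc1 (-1.86 ± 0.55), Ccr2 (-0.36 ± 0.23), Apoe (0.24 ± 0.71), H2-Ab1 (0.15 ± 0.30) and Cxcl9 (2.22 ± 0.81) did not pass. Cd40 (0.68 ± 0.53), Arg1 (0.33 ± 0.83), Il1b (1.07 ± 0.46), Ccl5 (0.24 ± 0.56), Adgre1 (-0.35 ± 0.33) and Cd274 (0.59 ± 0.48) did not pass either, whereas Ly6a did (2.47 ± 0.41, adjusted p = 0.0023). The ribosomal genes were more negative, with Rps29 at -1.70 ± 0.19, adjusted p = 4.3e-05. Without control CD40 mouse 1 there were 25 calls and without mouse 2 there were 20, with 2 and 1 type I interferon genes. Over all pools and mice left out in turn the calls ran from 20 to 326, the highest without B2m-null isotype replicate 2.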

How the data were processed

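UMI counts were deposited by the authors as unnormalised gene-by-barcode matrices of 8 lanes, with hashtag counts in the same matrices. Per the submitters' processing notes, Cell Ranger 3.0.0 and bcl2fastq 2.20.0.422 were used with mm10. Barcodes with 200 genes and at most 10% mitochondrial UMIs were kept. A mouse was assigned where hashtag counts, fitted per lane, gave 1 hashtag with a posterior of 0.9 or more and 20 counts or more; hashtag doublets were left out, and no other doublet caller was run. Gated counts were summed per mouse, for all 16 mice (22 or more cells each), and 6971 of 32285 genes passed filterByExpr. edgeR 4.0.16 (TMM scaling, quasi-likelihood test, R 4.3.3) fitted all 16 mice together with Benjamini-Hochberg adjustment at 0.05; shares were tested with exact permutation over mice. The fit was tested on simulated data. Alternatives used DESeq2 1.42.0, limma 3.58.1, other gates, thinned cells and left-out pools or mice. Named genes were the 8 largest called changes each way with 20 CPM or more and no overlap, the most abundant 4 called members of each list (all where 5 or fewer), and 15 genes given in every comparison; some named by this rule are left out for length or are not reported here. The members and lists were chosen with earlier results of these data known. In total 73652 cells were assigned, and counting intervals and floors cover counting error only.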

Additional observations from a re-analysis of the deposited data

Results flagged for a closer look

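Single mice stood apart from the others of their group in 3 of 87 groups of 4 or 5 mice tested with Dixon's criterion, which chance alone reaches in about 1 in 20. All 3 were in B2m-null isotype: Mrc1 was highest in mouse 1 of replicate 1, at 889 CPM, Cfb was lowest in mouse 2 of replicate 2, at 12.9 CPM, and Isg15 was lowest in mouse 1 of replicate 1, at 242 CPM.

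The effect of CD40 differed between tumour genotypes, by the test of the difference itself (edgeR, adjusted p under 0.05), for 46 named genes with UMIs in every group; values are log2 differences, B2m-null minus control. Type I interferon genes with a positive difference were Ifit1 (4.18), Ifit3 (3.38), Isg15 (2.15), Zbp1 (1.78), Ms4a4c (1.24) and Slfn5 (1.01). Of the interferon-gamma list, in which 24 of 28 genes were not called, Gm4951 (3.17) and Fcgr1 (1.39) were positive beside Cxcl10 and Psmb10 below. Of the arginine and itaconate list they were Upp1 (3.44), Ass1 (2.27), Acod1 (2.12) and Sod2 (1.66). Cfb (3.40), Ly6a (2.47) and Calhm6 (1.71) were positive as well. Chemokines were Ccl12 (2.34), Cxcl10 (2.09), Cxcl16 (1.79) and Ccl2 (1.47). Presentation genes were Psmb8 (1.49), Psmb10 (1.48), H2-Q7 (1.48), Psmb9 (1.21), Psme1 (1.18), Calr (1.09), Ifi30 (1.05) and H2-D1 (0.97), beside the proteasome gene Psmb2 (2.46). Plac8 (1.15), Lyz2 (0.97), Fcer1g (0.85), Pkm (1.04), AA467197 (3.62), C1qbp (4.45) and Pgap2 (3.06) were also positive, the last 2 and Ifit1 and Ifit3 with at most 3 UMIs in control CD40, where the fitted value depends on the prior count. Negative differences were those of Rps29 (-1.70), Rpl37a (-1.66), Rpl38 (-1.62), Rps21 (-1.33), Romo1 (-1.39), Bach1 (-1.51), Ikzf1 (-1.51), Ptger4 (-1.71), Cybc1 (-1.63), Ppp6r3 (-1.64) and Wfdc21 (-6.33), the last with 2 UMIs in control isotype. What sets these differences was not tested, and control CD40 rests on 1 pool of 2 mice.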

How the results depend on the processing

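Counts of called genes differed between settings. Called were 122 genes for the CD40 effect in control tumours, 814 for that effect in B2m-null tumours, 72 for genotype under isotype, 46 for genotype under CD40 and 155 for the difference of the effects; counts follow in this order. With the lane as the unit they were 39, 478, 9, 2 and 14. With cells thinned to 2000 UMIs they were 43, 118, 16, 12 and 29, and with 4 or more UMIs of Chil3 and Vcan 22, 244, 4, 3 and 11. Control CD40 was a single pool in the lane fit and a single mouse in the thinned and stricter Chil3 and Vcan fits. In those fits the counts for CD40 in control tumours, genotype under CD40 and the difference had no spread within control CD40. That group was assumed to vary like the others, so those counts cannot be set beside the rest as like alternatives. With no C1q UMI allowed the counts were 255 for CD40 in B2m-null tumours, 27 for genotype under isotype and 64 for the difference. At most 5% mitochondrial UMIs gave 398, 29 and 97 for the same 3. Mice with 50 cells or more, which leaves no control CD40 mouse, gave 364 for the effect in B2m-null tumours and 18 for genotype under isotype. Without a filter on low counts genotype under isotype gave 151, genotype under CD40 126 and the difference 288. DESeq2 gave 137 for genotype under CD40, and limma-voom with the lane as a random block gave 25 for it and 64 for the difference. Fewer cells and UMIs entered the stricter gates and the thinned fits; the cause of each shift was not tested. Leaving out 1 pool, lane or mouse in turn gave 19 to 159 calls for CD40 in control tumours, 344 to 795 for CD40 in B2m-null tumours, 13 to 95 for genotype under isotype, 6 to 112 for genotype under CD40 and 20 to 326 for the difference. The difference in share ran from -3.65 to -2.76 points for CD40 in control tumours, -1.60 to -0.150 for CD40 in B2m-null tumours and 1.51 to 2.19 for genotype under CD40. For genotype under isotype it ran from -1.29 to 0.153, with the sign turned only without B2m-null isotype replicate 1.

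Among single genes, 180 called values recomputed under their alternatives gave 6388 values, of which 76.4% kept direction and call, 23.5% kept direction only and 7 turned sign. Camp turned to -7.19 with 4 or more UMIs of Chil3 and Vcan, -6.77 without control CD40 replicate 1 and -6.87 without control CD40 mouse 1. S100a8 turned to -0.387, -0.207 and -0.903 under the same 3. The stricter gate left control CD40 mouse 1 with 18 cells, under the minimum of 20. The first and last of these settings therefore both lacked that mouse. Over left-out pools, lanes and mice Camp ran from -6.87 to 14.0, S100a8 from -0.903 to 10.3 and Igkc from -2.70, without B2m-null CD40 replicate 1, to 5.49.

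Replicate numbers name pools and were checked as a pairing: deviations of same-numbered pools correlated at 0.060 between the isotype groups, 0.155 between control isotype and B2m-null CD40 and 0.192 between the B2m-null groups across 6971 genes, so the numbers were not taken to pair them. With the replicate block CD40 in B2m-null tumours gave 868 calls and genotype under isotype 63, and the share differences were -0.794 and -0.696 points, neither past its threshold.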

Other observations

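A few gated barcodes carried transcripts of other programmes, given here as values. Of 1662 assigned cells, 8 held 145 to 950 UMIs of the neutrophil granule genes Camp, Ngp and Ltf, with 8 to 118 UMIs of Chil3 and at most 1 of Vcan. Of these, 4 lay in control CD40, 2 in B2m-null CD40 and 1 in each isotype group. They held 92.1% of all S100a8 and S100a9 UMIs of the gated cells. In B2m-null CD40, 441 UMIs of the precursor genes Prtn3, Ms4a3, Mpo, Elane and Ctsg were read, 65.5% of them in 1 cell.

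In all groups together 35 cells had 5 or more UMIs of Mki67, Top2a, Birc5, Ube2c and Stmn1. These cells held 83.3% of the UMIs of those genes.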
